A study of Mus musculus with 14 samples.

Results

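The forkhead (Fox) genes encode transcription factors that share a winged-helix DNA-binding domain. All genes named Fox followed by a subfamily letter from a to s, a number and an optional letter were taken from the expression table, which gave 43 members among 23174 genes, and no measured value entered that choice. Of the 43 members, 32 reached 1 FPKM (fragments mapped to a transcript, scaled to its length and to the library's depth) in at least 1 library, 25 reached 5 FPKM, and 7 stood at 5 FPKM or more in each of the 14 libraries. Foxm1, the member that drives mitotic genes, was not analysed here.

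Forkhead factors bind a shared core motif, and several can engage nucleosome-bound DNA, which earned the FoxA proteins the name pioneer factors. In the early mouse embryo Foxa2 marks visceral endoderm, a derivative of the primitive endoderm, and later the node, floor plate and definitive endoderm, whereas Foxd3 is required to maintain the epiblast and embryonic stem cells (ESC). Foxh1 carries activated Smad complexes to Nodal target genes, and FoxO proteins are held out of the nucleus by insulin and Akt signalling.

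Poly(A) RNA was sequenced as paired 150-base reads during conversion of mouse ESC into extraembryonic endoderm (XEN) cells, the cultured counterpart of primitive endoderm. 4 lines of the 129S1/SVImJ strain were followed: the wild-type line 3WT, the Zfp281 knockout lines 3.34Null and 2.6Null, and 3.34Null-Rescue, which is 3.34Null with Zfp281 restored. Zfp281 is a zinc finger transcription factor. Each line gave 1 library at each of 3 stages, and each is 1 line, so the replicates of a group are different lines. ESC were grown without feeders in serum and LIF. The stage called cXENp1 followed 48 h of retinoic acid at 0.01 µM with activin A at 10 ng/mL, and cXENp3 followed a passage on irradiated fibroblast feeders and further culture on gelatin. All 4 lines received the same treatment. XENB1 and XEN5 are established wild-type XEN lines kept in fibroblast-conditioned medium, and the first is labelled 129S1. Below, 3WT and 3.34Null-Rescue together are the Zfp281-present lines, the 2 knockouts are the null lines, and 4 values in a row follow the order 3WT, 3.34Null-Rescue, 3.34Null, 2.6Null.

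Zfp281 itself stood at 25.1 to 38.6 FPKM in the 6 Zfp281-present libraries, at 0 to 3.96 FPKM in the 6 null libraries, and at 10.6 and 12.5 FPKM in XENB1 and XEN5. The summed level of 6 ESC markers was 3207, 3067, 3148 and 2575 FPKM in ESC, 65.4, 106, 60.7 and 68.1 FPKM at cXENp1, 3626, 2109, 415 and 91.7 FPKM at cXENp3 and 13.8 and 0.159 FPKM in XENB1 and XEN5. The summed level of 6 XEN markers was 0.996, 1.11, 5.63 and 45.5 FPKM in ESC, 44.0, 20.7, 28.3 and 351 FPKM at cXENp1, 5.00, 13.3, 1081 and 851 FPKM at cXENp3 and 914 and 1233 FPKM in the XEN lines. At cXENp3 the Zfp281-present libraries thus carried the higher ESC marker levels and the null libraries the higher XEN marker levels. The ESC library of 2.6Null stood apart from the other 3 in 3 forkhead members and carried all 6 XEN markers at 1 FPKM or more. In these bulk samples fewer cells of a type and less RNA per cell cannot be told apart.

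The summed forkhead level and the members that made it up differed between stages. The sum was 204, 198, 170.0 and 198 FPKM in ESC and 297, 276, 234 and 267 FPKM at cXENp1. At cXENp3 it was 231 and 168 FPKM with Zfp281 and 321 and 449 FPKM without, and it was 415 and 379.8 FPKM in XENB1 and XEN5. The null cXENp3 and XEN libraries were thus the 4 highest in this sum. The order differed when the sum was taken as a share of all FPKM in the library. By that share 2.6Null at cXENp3 was highest and 3WT at cXENp1 came next, above XENB1, XEN5 and 3.34Null at cXENp3. In ESC no member held more than 17.8% of the sum, and the leading member was Foxh1, Foxo3, Foxk2 or Foxd3, depending on the line. At cXENp1 Foxp4 led in 3 lines with 15.9% to 22.2%, and Foxq1 led in 2.6Null with 18.9%. In the XEN lines Foxq1 held 33.3% and 37.9% and Foxa2 22.5% and 18.9%, so these 2 genes together made up most of the family's RNA there. At cXENp3 the leader was Foxo4 in 3WT (13.9%), Foxp4 in 3.34Null-Rescue (11.2%), Foxa2 in 3.34Null (19.4%) and Foxo4 in 2.6Null (25.2%).

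**Figure D1:**
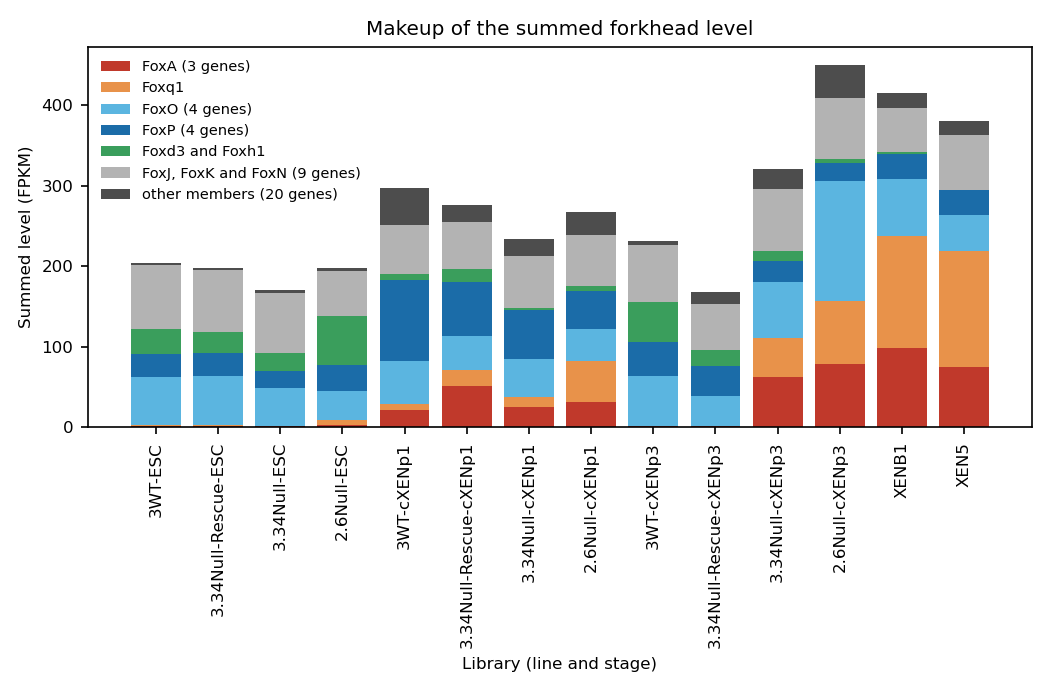
Summed FPKM of the 43 forkhead members in each of the 14 libraries, as stacked bars split into the FoxA genes, Foxq1, other subfamilies and the rest. Foxq1 and the FoxA genes, chiefly Foxa2, fill a large share of the bars of XENB1, XEN5 and the 2 null cXENp3 libraries and little of the ESC bars.

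Members were then compared between groups with limma on log2(FPKM + 1), fitted over all genes that passed the filter on low values (1 FPKM or more in at least 2 of the libraries fitted), and genes with an adjusted p (Benjamini-Hochberg) below 0.05 were called. A change or difference below is on that log2 scale, which understates changes of low genes, and adjusted p-values come from that fit. Of the 43 members, 30 passed the filter in at least 1 of 10 comparisons, and 23 were called in at least 1. Since the samples of a group are lines, the p-values measure the spread between lines within groups, pooled over the groups of a fit. Fits with the line as a block are the exception. The rescue line was made from a null line, so the lines are not all independent. XEN lines were compared with ESC to describe the endpoint: 12 of 21 members tested were called, 6 higher and 6 lower, against 41.9% of all 12372 genes tested (22.2% higher, 19.7% lower). For cXENp1 against ESC, all 12 libraries of the 4 lines were fitted with the stages as groups and the line as a block. The spread in that fit is therefore how much the changes between stages differ between lines, and it includes the cXENp3 libraries. There 15 of 30 were called, 9 higher and 6 lower, against 28.5% of 13191 genes (14.7% higher, 13.8% lower). At cXENp3, null against Zfp281-present lines, 12 of 30 were called, 8 higher and 4 lower, against 41.9% of all genes (22.9% higher, 19.0% lower), so the members' share was near that of all genes. In XEN lines against ESC the median change of the members was -0.05 and that of all genes -0.02. At cXENp1 against ESC the medians were 0.32 and 0, and between null and Zfp281-present lines at cXENp3 they were 0.22 and 0.01.

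The 3 FoxA genes, which bind shared sites in endoderm, had 3 different courses. Foxa1 (chr12:58641619-58647108, build mm9) was at 0.0174, 0.219, 0.0937 and 0.326 FPKM in ESC, 17.3, 27.1, 17.2 and 12.2 FPKM at cXENp1, 0.691, 1.22, 0.158 and 0.359 FPKM at cXENp3 and 0.0988 and 0.0200 FPKM in XENB1 and XEN5. It was high at cXENp1 in all 4 lines, with no overlap with any other stage. Foxa1 rose from ESC to cXENp1 by 4.02 (SE 0.24, limma adjusted p = 2.9e-05). From cXENp1 to cXENp3 it changed by -3.62 (SE 0.29, limma adjusted p = 6.7e-05) in null and by -3.55 (SE 0.29, limma adjusted p = 0.000323) in Zfp281-present lines. Both changes kept their call with each line left out in turn.

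Foxa2 (chr2:147868614-147872705, mm9) was at 0, 0, 0.0576 and 1.20 FPKM in ESC and 3.90, 23.7, 7.42 and 18.9 FPKM at cXENp1. It was at 0.0801, 0.0773, 62.4 and 77.7 FPKM at cXENp3 and 93.3 and 71.9 FPKM in XENB1 and XEN5. At cXENp1 all 4 lines were above all 4 ESC libraries and the 2 kinds of line overlapped. At cXENp3 both null lines lay in the range of the XEN lines or just below it, and both Zfp281-present lines were below 0.1 FPKM. In XEN lines Foxa2 was higher than in ESC by 6.07 (SE 0.38, limma adjusted p = 2.98e-05). In null lines at cXENp3 it was higher than in Zfp281-present lines by 6.03 (SE 0.67, limma adjusted p = 0.000271), and the call held with each line left out, at 5.88 to 6.19. The change from ESC to cXENp1, 3.27 (SE 1.11, limma adjusted p = 0.0525), did not pass the threshold. The spread in that fit includes cXENp3, where Foxa2 differed between null and Zfp281-present lines.

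The course of Foxa2 after cXENp1 divided the lines. It rose in null lines by 2.45 (SE 0.67, limma adjusted p = 0.0284) and changed by -3.35 (SE 0.67, limma adjusted p = 0.0131) in Zfp281-present lines. Without 3.34Null or 2.6Null the rise in null lines was no longer called, at 1.99 with adjusted p = 0.192 and 2.91 with adjusted p = 0.0832. Without 3WT or 3.34Null-Rescue the fall in Zfp281-present lines was no longer called, at -4.52 with adjusted p = 0.0733 and -2.18 with adjusted p = 0.186. At cXENp1 Foxa2 was highest in 3.34Null-Rescue, the line whose summed XEN markers were lowest at that stage. Among the 6 mesendoderm and definitive endoderm markers the sum ran from 1.72 to 10.4 FPKM over all libraries. For 6 neural and floor plate markers the sum was 9.24, 7.48, 66.1 and 28.5 FPKM in ESC. At cXENp1 it was 40.4, 35.9, 55.9 and 26.6 FPKM. In cXENp1 against ESC 2 of the 4 tested were called higher and 0 lower, against 28.5% of all genes called. How Foxa2 relates to these markers was not tested.

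Foxa3, the member known from liver and intestine, was at 2.03, 1.96, 1.35 and 1.70 FPKM in ESC, 0.368, 0.657, 0.968 and 0.405 FPKM at cXENp1 and 0.773, 0.294, 0.156 and 0 FPKM at cXENp3. XENB1 and XEN5 had the highest values, 5.10 and 3.10 FPKM. Null lines at cXENp3 were below XEN lines, at -2.22 (SE 0.28, limma adjusted p = 0.00186), written as null minus XEN, and the call held with each library or line left out. Against ESC, Foxa3 was called higher in XEN lines, by 0.86 (SE 0.27, limma adjusted p = 0.0343), and lower at cXENp1, at -0.80 (SE 0.23, limma adjusted p = 0.0285). The first call was lost without 3WT, 3.34Null, 3.34Null-Rescue, XENB1 or XEN5, with 0.58 without XENB1 and 1.15 without XEN5. The second was lost with any of the 4 lines left out, at -0.98 to -0.68.

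The 250 bases before the start of each FoxA gene are shown because the 3 paralogues parted in their courses. They come from RefSeq on build GRCm38.p6, are written 5′ to 3′ on the gene's strand, and have any match to the forkhead core TGTTTAC, on either strand, in capitals. All 3 genes lie on the minus strand, at chr12:57546112-57546361 for Foxa1, chr2:148046970-148047219 for Foxa2 and chr7:19023540-19023789 for Foxa3.
Foxa1: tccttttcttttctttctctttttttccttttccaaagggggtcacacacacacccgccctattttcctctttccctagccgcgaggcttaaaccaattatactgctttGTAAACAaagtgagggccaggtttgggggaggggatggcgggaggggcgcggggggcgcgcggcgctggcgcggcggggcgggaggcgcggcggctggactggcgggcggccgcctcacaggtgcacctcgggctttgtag
Foxa2: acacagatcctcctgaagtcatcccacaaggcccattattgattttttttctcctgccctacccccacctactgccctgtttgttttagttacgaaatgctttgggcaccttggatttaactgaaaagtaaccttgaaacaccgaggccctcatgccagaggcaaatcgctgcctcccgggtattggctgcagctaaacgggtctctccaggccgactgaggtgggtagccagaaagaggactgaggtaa
Foxa3: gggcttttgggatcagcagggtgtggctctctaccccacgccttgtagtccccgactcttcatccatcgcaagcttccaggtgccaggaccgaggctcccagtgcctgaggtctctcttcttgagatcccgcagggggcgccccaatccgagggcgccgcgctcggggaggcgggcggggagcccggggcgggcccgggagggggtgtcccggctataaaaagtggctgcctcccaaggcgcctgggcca
The Foxa1 window held 1 match, the reverse complement GTAAACA starting 141 bases before the start, and the Foxa2 and Foxa3 windows held none. GC content was 62.0% for Foxa1, 50.8% for Foxa2 and 68.8% for Foxa3, with 21, 6 and 18 CpG dinucleotides. Of all 32851 mouse promoter windows of 300 bases in the same source (250 before to 50 after the start), 3.65% held the forkhead core on either strand, and so did 1 of the 33 windows of the 28 members listed there. The GATA letters AGATAA stood in 11.2% of all windows and in 2 of the 33, including the window at another listed start of Foxa2. The nuclear receptor letters AGGTCA stood in 16.3% and in 5, and the Foxh1 letters AATCCACA in 0.855% and in none of the 33. None of these motifs contains another, and a match is a description of the sequence only. In the 250 bases before the start, median GC content was 62.0% for the member windows and 52.4% for all windows.

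Genes known to act with FoxA factors in endoderm were taken as a list of 16. Of the 12 tested at cXENp3, 7 were higher and 2 lower in null lines, with a median difference of 1.46 against 0.01 for all genes. The transcription factors Gata4 at 7.83, Sox17 at 6.89 and Sox7 at 6.06 had the largest differences, and these 3 and Gata6 are also XEN markers. In XEN lines against ESC 9 of 11 were higher and 1 lower, and at cXENp1 against ESC 4 of 12 were higher and 1 lower. Over all genes 41.9% were called at cXENp3 (22.9% higher), 41.9% in XEN lines and 28.5% at cXENp1.

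**Figure D2:**
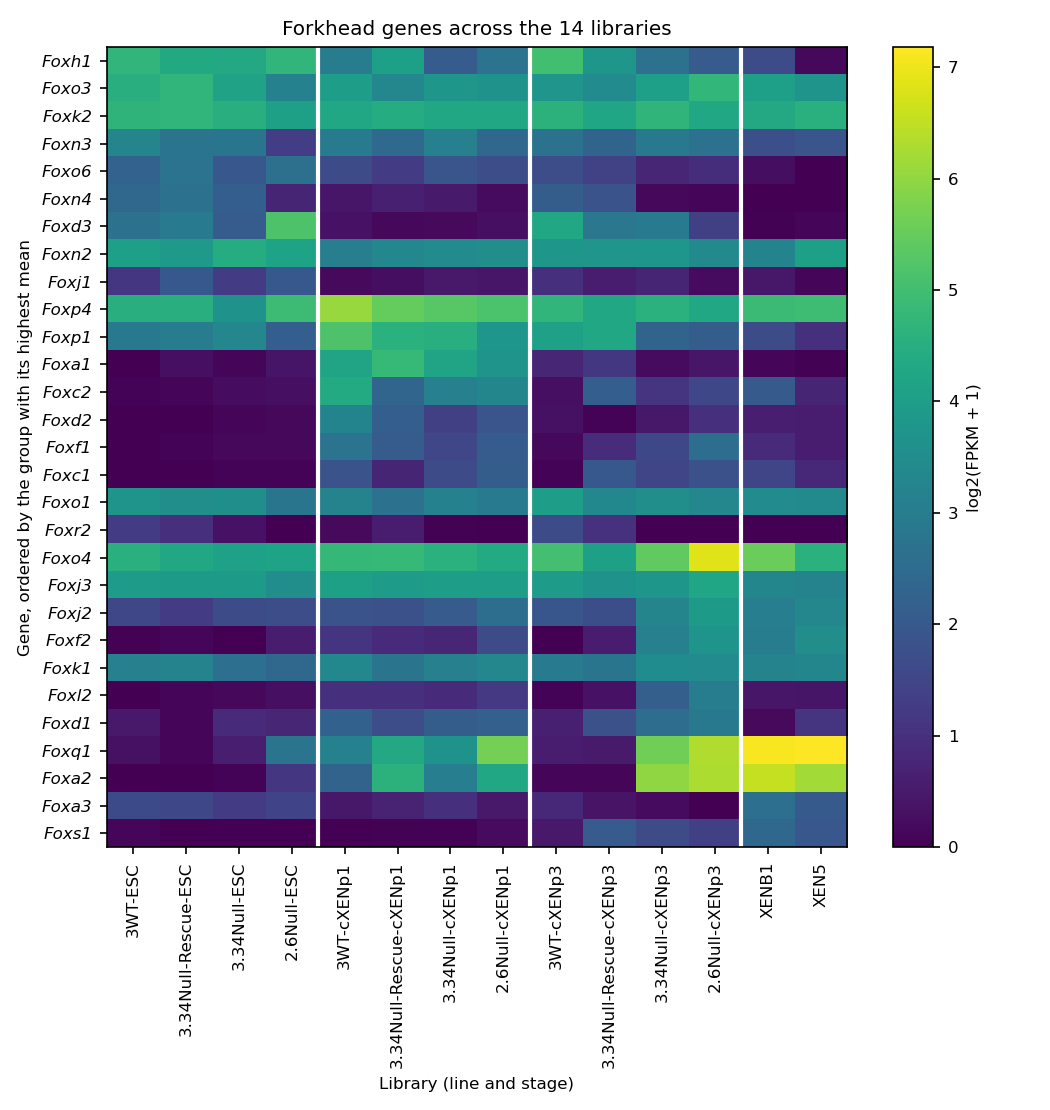
Log2(FPKM + 1) of the 29 named forkhead members (vertical) in the 14 libraries (horizontal), ordered by stage and line. Foxa1 is high in the 4 cXENp1 libraries alone, and Foxa2, Foxq1 and Foxf2 are high in the null cXENp3 and XEN libraries.

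Foxq1, Foxf2 and Foxc1 lie within 1 stretch of chromosome 13, with 64.8 kb between Foxq1 (chr13:31650039-31652843, mm9) and Foxf2 (chr13:31717685-31723275) and 175.2 kb between Foxf2 and Foxc1. Foxq1, a factor known from hair and gastric epithelium, was at 0.254, 0.0831, 0.514 and 5.84 FPKM in ESC and 7.86, 19.3, 11.8 and 50.5 FPKM at cXENp1. It was at 0.501, 0.446, 48.1 and 78.6 FPKM at cXENp3 and 138 and 144 FPKM in XENB1 and XEN5. The XEN lines had the highest values of any member in any library, and at cXENp3 the null and Zfp281-present lines did not overlap. Foxq1 was higher in XEN lines than in ESC by 6.20 (SE 0.69, limma adjusted p = 0.000395) and in null than in Zfp281-present lines at cXENp3 by 5.41 (SE 0.76, limma adjusted p = 0.000755). It rose from ESC to cXENp1 by 3.26 (SE 0.85, limma adjusted p = 0.0202), a call lost without 3.34Null-Rescue, at 2.94 with adjusted p = 0.0641. From cXENp1 to cXENp3 it changed by -3.19 (SE 0.76, limma adjusted p = 0.0261) in Zfp281-present lines, a call lost without 3WT, at -3.81 with adjusted p = 0.335, or without 3.34Null-Rescue, at -2.56 with adjusted p = 0.312. In null lines the change was 1.28 (SE 0.76, limma adjusted p = 0.257), which was not called, and 2.6Null at cXENp1 was above 3.34Null at cXENp3. Without the ESC library of 2.6Null the difference between XEN lines and ESC was 6.81.

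Foxf2, a mesenchymal factor of gut and craniofacial tissue, was at 0.0288, 0.0692, 0 and 0.456 FPKM in ESC, 1.13, 0.823, 0.718 and 2.15 FPKM at cXENp1, 0, 0.490, 7.82 and 12.1 FPKM at cXENp3 and 7.03 and 10.6 FPKM in XENB1 and XEN5. Values above 5 FPKM were found in the null cXENp3 and XEN libraries and in no other. Its difference was 3.10 (SE 0.27, limma adjusted p = 0.000136) between XEN lines and ESC and 3.14 (SE 0.35, limma adjusted p = 0.000286) between null and Zfp281-present lines at cXENp3. It rose from cXENp1 to cXENp3 in null lines by 2.21 (SE 0.35, limma adjusted p = 0.00236). Foxc1, which acts in eye and vascular mesenchyme, was at 0, 0, 0.0462 and 0.0545 FPKM in ESC, 2.60, 0.661, 2.12 and 3.30 FPKM at cXENp1, 0.0594, 2.95, 1.85 and 2.42 FPKM at cXENp3 and 1.82 and 0.734 FPKM in XENB1 and XEN5. It was low throughout, and at cXENp3 its null lines lay between the 2 Zfp281-present lines, with a difference of 0.61 (SE 0.54, limma adjusted p = 0.395). At cXENp1 against ESC it was higher by 1.55 (SE 0.40, limma adjusted p = 0.0205), a call lost without 3.34Null (1.54) or 2.6Null (1.39).

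Foxf1 and Foxc2 lie 28.0 kb apart on chromosome 8 and shared a rise at cXENp1. Foxf1, needed in extraembryonic and lateral mesoderm, was at 0, 0.0571, 0.112 and 0.104 FPKM in ESC, 5.70, 3.22, 1.87 and 3.22 FPKM at cXENp1, 0.107, 0.867, 1.95 and 5.01 FPKM at cXENp3 and 0.830 and 0.486 FPKM in XENB1 and XEN5. Foxc2, which acts in lymphatic vessels and paraxial mesoderm, was at 0.0518, 0.0645, 0.177 and 0.231 FPKM in ESC, 20.0, 4.11, 7.71 and 8.85 FPKM at cXENp1, 0.228, 3.39, 1.16 and 1.96 FPKM at cXENp3 and 3.08 and 0.668 FPKM in XENB1 and XEN5. For both genes the 4 cXENp1 libraries lay above all 4 ESC libraries. The rises were 2.01 (SE 0.44, limma adjusted p = 0.0109) for Foxf1 and 3.12 (SE 0.48, limma adjusted p = 0.00235) for Foxc2. The Foxf1 call was lost without 3.34Null-Rescue, at 2.01 with adjusted p = 0.0627. Foxl1, the next gene on that stretch, was among the members too low to be tested.

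At cXENp3 Foxf1 was higher in null than in Zfp281-present lines by 1.55 (SE 0.40, limma adjusted p = 0.0118), a call lost without 3WT (1.17) or without 2.6Null (1.04). Foxf1 changed from cXENp1 to cXENp3 in Zfp281-present lines by -1.89 (SE 0.40, limma adjusted p = 0.0155), lost without 3WT (-1.18) or 3.34Null-Rescue (-2.60). Foxl2, the ovarian granulosa cell factor, was at 0, 0.0878, 0.122 and 0.234 FPKM in ESC, 0.994, 0.950, 0.853 and 1.30 FPKM at cXENp1, 0.0480, 0.267, 3.49 and 7.28 FPKM at cXENp3 and 0.344 and 0.326 FPKM in XENB1 and XEN5. Its 2 highest libraries were the null lines at cXENp3, above the XEN lines as well as the Zfp281-present lines. The difference was 2.40 (SE 0.29, limma adjusted p = 0.000381) against Zfp281-present lines and 2.19 (SE 0.28, limma adjusted p = 0.00199) against XEN lines. From cXENp1 to cXENp3 in null lines Foxl2 rose by 1.56 (SE 0.29, limma adjusted p = 0.00508).

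Foxd1, known from kidney stroma, was at 0.400, 0.0762, 0.832 and 0.693 FPKM in ESC, 3.69, 2.23, 3.37 and 3.57 FPKM at cXENp1, 0.536, 2.44, 4.90 and 6.49 FPKM at cXENp3 and 0.130 and 1.13 FPKM in XENB1 and XEN5. It was higher in null lines at cXENp3 by 1.53 (SE 0.37, limma adjusted p = 0.00904) against Zfp281-present lines and by 2.1 (SE 0.40, limma adjusted p = 0.0168) against XEN lines. The first call was lost without 3WT (0.95) or 2.6Null (1.36), and the second without 2.6Null, 3.34Null or XENB1 (1.64 without the last). Foxd2, expressed in paraxial mesoderm and kidney, was at 0, 0, 0.102 and 0.106 FPKM in ESC, 8.53, 3.39, 1.58 and 2.73 FPKM at cXENp1, 0.256, 0.0464, 0.380 and 0.951 FPKM at cXENp3 and 0.516 and 0.456 FPKM in XENB1 and XEN5. All 4 cXENp1 libraries stood above the other 10. From ESC to cXENp1 the rise was 2.09 (SE 0.35, limma adjusted p = 0.00327) for Foxd2 and 1.5 (SE 0.36, limma adjusted p = 0.0148) for Foxd1, the latter lost without 3.34Null (1.59) or 3.34Null-Rescue (1.48). In Zfp281-present lines Foxd2 then changed by -2.50 (SE 0.36, limma adjusted p = 0.003), lost without 3WT, at -2.07 with adjusted p = 0.132.

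Because the cells were passaged on feeders before cXENp3, 10 fibroblast markers were summed in each library. The sums were 20.5, 17.5, 7.09 and 7.97 FPKM in ESC, 75.1, 60.0, 32.5 and 18.2 FPKM at cXENp1, 37.6, 1278, 289 and 374 FPKM at cXENp3 and 646 and 560.2 FPKM in XENB1 and XEN5. At cXENp3, 6, 10, 9 and 9 of the 10 markers reached 1 FPKM in the order of lines above, and Lum was at 0 in 3WT. The highest sum was that of 3.34Null-Rescue at cXENp3, and in that library Foxf2 stood at 0.490, Foxf1 at 0.867 and Foxl2 at 0.267 FPKM, all below both null lines. In the same library Foxs1, Foxc1, Foxc2 and Foxd1 stood at 3.20, 2.95, 3.39 and 2.44 FPKM, all above 3WT. The marker Thy1 was at 15.8 FPKM in 3WT ESC, which were grown without feeders, so the sum does not measure feeder RNA alone. The part of fibroblast RNA in the values of these members was not tested.

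Foxs1, known from pericytes and sensory neurons, was at 0.102, 0, 0 and 0 FPKM in ESC, 0, 0.0314, 0.0314 and 0.157 FPKM at cXENp1, 0.395, 3.20, 2.14 and 1.58 FPKM at cXENp3 and 4.25 and 2.84 FPKM in XENB1 and XEN5. It reached 1 FPKM in 5 libraries, which were the 5 with the highest sums of fibroblast markers. The part of fibroblast RNA in Foxs1 was not tested. Foxs1 was higher in XEN lines than in ESC by 2.13 (SE 0.22, limma adjusted p = 0.000294) and rose in null lines from cXENp1 to cXENp3 by 1.38 (SE 0.41, limma adjusted p = 0.038). The latter call was lost without 3.34Null (1.16) or 2.6Null (1.61). The same step in Zfp281-present lines gave 1.25 (SE 0.41, limma adjusted p = 0.0766), with 3.34Null-Rescue far above 3WT at cXENp3.

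Foxd3 and Foxh1, the members tied to pluripotency, were low in XEN lines. Foxd3 (chr4:99322990-99325362, mm9) was at 5.36, 6.74, 3.25 and 35.2 FPKM in ESC and 0.279, 0.112, 0.135 and 0.225 FPKM at cXENp1. It was at 18.2, 6.25, 6.66 and 1.54 FPKM at cXENp3 and 0.0305 and 0.0688 FPKM in XENB1 and XEN5. All 4 cXENp1 libraries and both XEN lines were below every ESC library, and the highest value was that of 2.6Null ESC. At cXENp3 3.34Null lay between the 2 Zfp281-present lines, so the groups overlapped. Foxd3 was lower than in ESC, with a difference of -3.15 (SE 0.76, limma adjusted p = 0.0123) in XEN lines and of -2.98 (SE 0.70, limma adjusted p = 0.0144) at cXENp1. The first call was lost without XENB1 (-3.13) or XEN5 (-3.18), and the second without 3.34Null (-3.33) or 3.34Null-Rescue (-3.03). Without the ESC library of 2.6Null the differences were smaller and still called, at -2.50 in XEN lines and -2.08 at cXENp1.

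From cXENp1 to cXENp3 Foxd3 rose in Zfp281-present lines by 3.31 (SE 0.87, limma adjusted p = 0.0378). That call was lost without 3WT (2.70), without 3.34Null-Rescue (3.91) and with the line as a block (adjusted p = 0.0558). In null lines the change was 1.90 (SE 0.87, limma adjusted p = 0.148), and the difference between null and Zfp281-present lines at cXENp3 was -1.42 (SE 0.87, limma adjusted p = 0.213). Neither passed the threshold.

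Foxh1 (chr15:76498737-76500303, mm9) was at 25.6, 19.5, 19.3 and 25.6 FPKM in ESC, 7.14, 15.5, 3.22 and 5.70 FPKM at cXENp1, 31.3, 12.9, 5.42 and 3.15 FPKM at cXENp3 and 2.18 and 0.123 FPKM in XENB1 and XEN5. Unlike Foxd3 it stayed above 3 FPKM in all 4 lines at cXENp1, and at cXENp3 both null lines were below both Zfp281-present lines. The difference was -3.63 (SE 0.41, limma adjusted p = 0.000416) between XEN lines and ESC, kept with each line left out, at -2.88 without XEN5 and -4.38 without XENB1. It was -2.03 (SE 0.46, limma adjusted p = 0.00717) between null and Zfp281-present lines at cXENp3, lost without 3WT (-1.42) or 2.6Null (-1.72). It was -1.57 (SE 0.47, limma adjusted p = 0.0348) between cXENp1 and ESC, lost without 2.6Null (-1.43), 3.34Null (-1.34) or 3.34Null-Rescue (-1.99).

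A list of 20 activin and Nodal genes around Foxh1 was read in the same fits. At cXENp3, 2 of the 17 tested were higher and 8 lower in null lines, with a median difference of -0.66 against 0.01 for all genes, of which 22.9% were higher and 19.0% lower. The Nodal antagonists Lefty2 at -6.92 and Lefty1 at -6.53 and the co-receptor gene Tdgf1 at -3.81 had the largest differences. In XEN lines against ESC 3 of 17 were higher and 7 lower, and at cXENp1 against ESC 4 were higher and 4 lower, where 41.9% and 28.5% of all genes were called. Tdgf1 is also 1 of the 6 ESC markers.

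**Figure D3:**
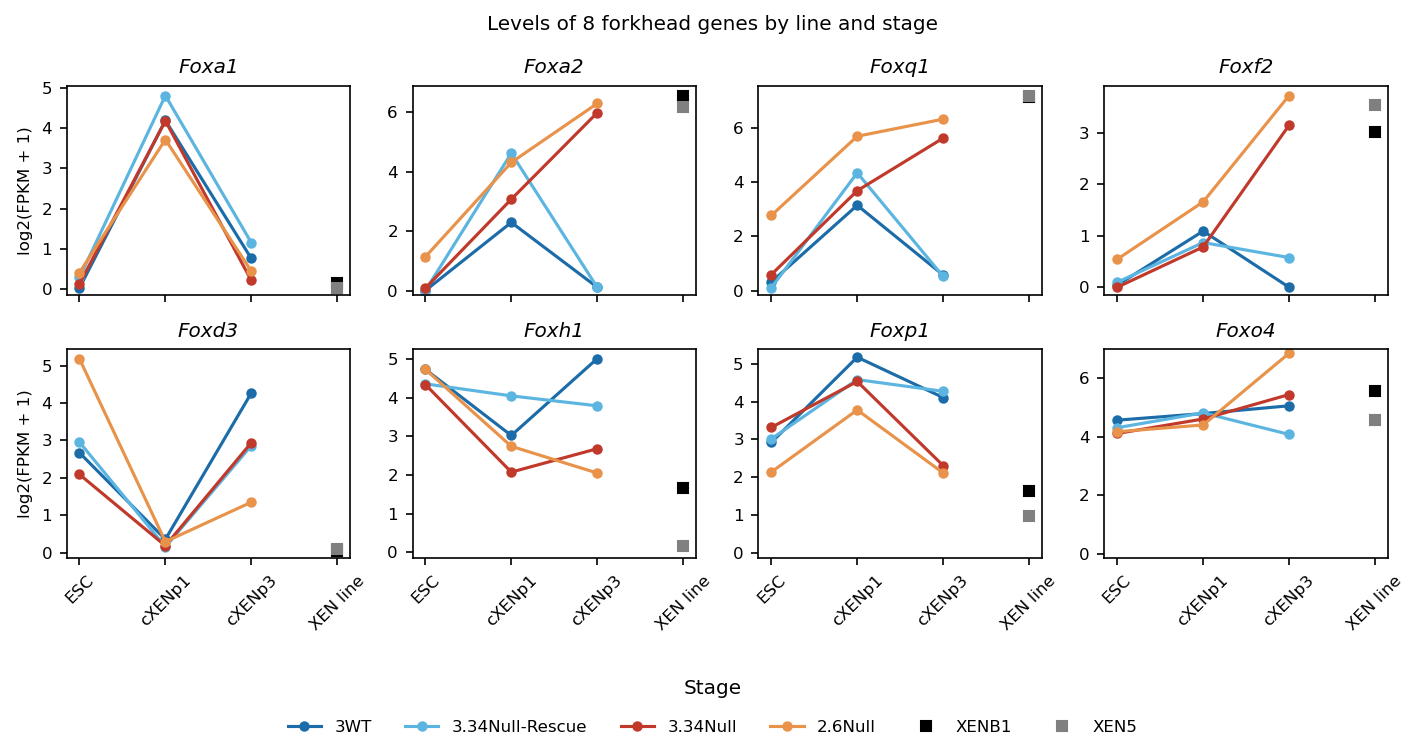
FPKM on a log2(FPKM + 1) axis at ESC, cXENp1 and cXENp3 for 8 forkhead members, with 1 trace per line and the 2 XEN lines at the right. Foxa2 and Foxq1 are high at cXENp3 in the 2 null lines alone, and Foxa1 is high at cXENp1 in all 4 lines.

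Among the FoxP genes, which encode repressors that form dimers, Foxp1 had its own highest stage mean at cXENp1. It was at 6.54, 7.06, 8.95 and 3.39 FPKM in ESC, 35.1, 22.9, 22.1 and 12.7 FPKM at cXENp1, 16.2, 18.3, 3.94 and 3.32 FPKM at cXENp3 and 2.12 and 0.970 FPKM in XENB1 and XEN5. All 4 cXENp1 libraries were above all 4 ESC libraries, and at cXENp3 both null lines were below both Zfp281-present lines. Foxp1 rose from ESC to cXENp1 by 1.67 (SE 0.36, limma adjusted p = 0.0102) and fell in null lines from cXENp1 to cXENp3, with a change of -1.95 (SE 0.39, limma adjusted p = 0.00715). The difference between null and Zfp281-present lines at cXENp3 was -1.98 (SE 0.39, limma adjusted p = 0.00357), no longer called without 3WT (adjusted p = 0.0659) or 3.34Null-Rescue (adjusted p = 0.0501). XEN lines were below ESC, at -1.53 (SE 0.38, limma adjusted p = 0.0141), a call lost without XEN5 (-1.20).

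Foxp4, a lung and gut member, was at 22.2, 22.1, 11.7 and 29.1 FPKM in ESC, 66.0, 43.8, 38.6 and 34.3 FPKM at cXENp1, 25.6, 18.9, 22.9 and 18.4 FPKM at cXENp3 and 28.9 and 30.2 FPKM in XENB1 and XEN5. Its cXENp1 values were above all others. The rise from ESC was 1.09 (SE 0.26, limma adjusted p = 0.0149), a call lost without 3WT (0.94), 3.34Null (0.90) or 3.34Null-Rescue (1.13). Foxp2, the speech-associated member, and Foxp3, the regulatory T cell factor, were too low to be tested.

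The FoxO genes, whose proteins respond to insulin, Akt and oxidative stress, were read at all stages. Foxo1 ranged from 5.55 to 15.3 FPKM and Foxo3 from 7.97 to 25.8 FPKM over the 14 libraries, and neither was called in any of the 10 comparisons. Foxo4 was at 22.5, 18.7, 16.2 and 16.9 FPKM in ESC, 26.5, 27.0, 23.2 and 20.0 FPKM at cXENp1, 32.1, 15.8, 42.1 and 113 FPKM at cXENp3 and 45.7 and 22.9 FPKM in XENB1 and XEN5. The value of 2.6Null at cXENp3 was the highest by far, and that of 3.34Null was also above both Zfp281-present lines. The difference at cXENp3 was 1.57 (SE 0.42, limma adjusted p = 0.0145), lost without 3WT (2.06 with adjusted p = 0.0606), 2.6Null (0.87) or 3.34Null-Rescue (1.09). The rise in null lines from cXENp1 was 1.64 (SE 0.42, limma adjusted p = 0.022), lost without the same 3 lines, with 0.83 without 2.6Null. Without 3.34Null both differences were larger, at 2.28 and 2.44.

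Foxo6, the member enriched in brain, was at 3.75, 5.67, 2.89 and 5.26 FPKM in ESC, 2.15, 1.41, 2.69 and 2.25 FPKM at cXENp1, 2.22, 1.60, 0.72 and 0.932 FPKM at cXENp3 and 0.198 and 0 FPKM in XENB1 and XEN5. Both XEN lines were below all 4 ESC libraries, at -2.27 (SE 0.30, limma adjusted p = 0.000821). Of 20 insulin and Akt genes around FoxO, all tested, 6 were higher and 2 lower in null lines at cXENp3, with Irs2 at 2.77, Klf6 at 2.23 and Insr at 2.1. The median was 0.49 against 0.01 for all genes, and the 8 called of 20 are close to the 41.9% called over all genes. In XEN lines 7 were higher than in ESC and 2 lower, also close to the 41.9% of all genes called there. At cXENp1 7 were higher and 3 lower, against 28.5% of all genes called.

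Foxj2, a broadly expressed member, was at 1.88, 1.43, 2.16 and 2.24 FPKM in ESC, 2.54, 2.42, 3.20 and 5.01 FPKM at cXENp1, 2.78, 2.30, 8.60 and 14.2 FPKM at cXENp3 and 7.47 and 8.96 FPKM in XENB1 and XEN5. The null cXENp3 and XEN libraries held its 4 highest values. It was higher in XEN lines than in ESC by 1.66 (SE 0.25, limma adjusted p = 0.00163) and in null than in Zfp281-present lines at cXENp3 by 1.78 (SE 0.28, limma adjusted p = 0.00133). From cXENp1 to cXENp3 it rose in null lines by 1.27 (SE 0.28, limma adjusted p = 0.0123), a call lost without 3WT (adjusted p = 0.0647) or 3.34Null-Rescue (adjusted p = 0.0649).

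Foxj1, the master regulator of motile cilia, was at 1.22, 2.95, 1.44 and 2.94 FPKM in ESC, 0.125, 0.20, 0.415 and 0.356 FPKM at cXENp1, 0.992, 0.501, 0.661 and 0.162 FPKM at cXENp3 and 0.376 and 0.0865 FPKM in XENB1 and XEN5. It was lower than in ESC, at -1.26 (SE 0.28, limma adjusted p = 0.0108) at cXENp1, lost without 3.34Null-Rescue (-1.10). In XEN lines it was also lower, at -1.31 (SE 0.32, limma adjusted p = 0.0139), lost without XENB1 (-1.48) or XEN5 (-1.14). Of 11 ciliary genes listed, 4 were tested, and 2 of them, Rfx2 at -1.91 and Tekt1 at -1.82, were lower in null lines at cXENp3, against 41.9% of all genes called (19.0% lower). In XEN lines 2 of the 4 were lower than in ESC, and at cXENp1 1 was higher and 2 lower, and 4 genes are too few to set against the 41.9% and 28.5% of all genes called. Of 12 mitotic genes known as Foxm1 targets, 6 were lower and none higher in null lines at cXENp3, with Ccnb2 at -1.90, Nek2 at -1.82 and Ccnb1 at -1.39. Over all genes 41.9% were called there, 19.0% lower. For Ccnb2, Nek2 and Ccnb1 both null lines were below both Zfp281-present lines. These genes stood at 17.9, 7.61 and 44.9 FPKM in 2.6Null and at 41.8, 30.0 and 127 FPKM in 3.34Null. Birc5 and Aurka, also listed, were at 104 and 57.7 FPKM in 3.34Null, between the Zfp281-present lines. In 2.6Null they were below both, at 35.9 and 22.9 FPKM. In XEN lines 5 of the 12 were lower than in ESC and at cXENp1 1 was, against 41.9% and 28.5% of all genes called in either direction.

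Foxn4, known from retina and spinal cord, was at 4.29, 5.50, 3.44 and 0.676 FPKM in ESC, 0.341, 0.543, 0.426 and 0.149 FPKM at cXENp1, 3.38, 2.57, 0.117 and 0.0776 FPKM at cXENp3 and 0.0168 and 0 FPKM in XENB1 and XEN5. At cXENp3 both Zfp281-present lines were above 2 FPKM and both null lines below 0.2 FPKM. The difference was -1.85 (SE 0.39, limma adjusted p = 0.00491) there, lost without 3WT (adjusted p = 0.101). XEN lines were lower than ESC, at -1.99 (SE 0.51, limma adjusted p = 0.016), lost without XENB1 (-2.0) or XEN5 (-1.98). At cXENp1 Foxn4 was lower than in ESC, at -1.56 (SE 0.37, limma adjusted p = 0.0141), lost without 3.34Null (-1.53) or 3.34Null-Rescue (-1.39). In Zfp281-present lines it then rose by 1.46 (SE 0.39, limma adjusted p = 0.0408), lost without 3WT (1.21) or 3.34Null-Rescue (1.71).

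Foxr2, a member best known as an oncogene of brain tumours, was at 1.41, 0.951, 0.263 and 0.0191 FPKM in ESC, 0.136, 0.490, 0.0374 and 0 FPKM at cXENp1 and 2.09, 1.02, 0 and 0 FPKM at cXENp3, and was listed at 0 in both XEN lines. Both null lines were below both Zfp281-present lines at each of the 3 stages. The difference was -1.32 (SE 0.26, limma adjusted p = 0.00386) at cXENp3 and -0.94 (SE 0.26, limma adjusted p = 0.0879) in ESC, where it did not pass the threshold. In Zfp281-present lines Foxr2 rose from cXENp1 to cXENp3 by 0.94 (SE 0.26, limma adjusted p = 0.0482), a call lost without 3.34Null, 2.6Null or 3.34Null-Rescue (1.44 without the last) and with the line as a block (adjusted p = 0.0697). Foxn2, a broadly expressed member, was at 15.7, 13.6, 20.7 and 17.0 FPKM in ESC, 7.46, 9.14, 10.0 and 10.8 FPKM at cXENp1, 12.9, 12.4, 12.8 and 9.79 FPKM at cXENp3 and 8.48 and 15.9 FPKM in XENB1 and XEN5. Every cXENp1 value was below every ESC value, at -0.77 (SE 0.19, limma adjusted p = 0.0176), a call lost without 3WT (-0.70), 3.34Null (-0.71) or 3.34Null-Rescue (-0.85).

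7 members were tested and called nowhere. Besides Foxo1 and Foxo3 they included Foxj3 (8.18 to 18.0 FPKM), Foxk1 (4.27 to 10.2 FPKM), Foxk2 (15.8 to 25.2 FPKM) and Foxn3 (1.48 to 8.59 FPKM). Foxk1 and Foxk2 are known as repressors of autophagy genes. The other 13 members did not pass the filter in any comparison, and the highest value among them in any library was 3.83 FPKM. They are Foxp2, Foxp3, Foxb1, Foxb2, Foxd4, Foxe1, Foxe3, Foxi1, Foxi2, Foxi3, Foxl1, Foxn1 and Foxr1.

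Null and Zfp281-present lines were also compared before cXENp3, to ask whether members already differed. In ESC 0 of 30 members were called, against 1.97% of all genes. There 4 members had an unadjusted limma p under 0.05 (Foxr2, Foxn4, Foxk1 and Foxo3), as did 2762 of all 13191 genes. At cXENp1 0 of 30 were called, against 0.485% of all genes. There 3 members had an unadjusted limma p under 0.05 (Foxd2 and Foxh1 among them), as did 1486 of all 13191 genes. Without 3.34Null, 2.6Null stood alone as the null ESC line. The ESC library of 2.6Null carries another prefix in its description than both Zfp281-present ESC libraries, so there the prefix and Zfp281 status cannot be told apart. In that fit Foxd3 differed by 2.37 and Foxq1 by 2.55, and Foxn3, Foxn4 and Foxo3 were lower in 2.6Null. With all 4 lines Foxq1 differed by 1.47 (SE 0.76, limma adjusted p = 0.306) in ESC, and without 2.6Null the difference was 0.38.

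The step from cXENp1 to cXENp3 was compared within each kind of line. In null lines 8 of 30 members were called, 6 higher and 2 lower, against 21.3% of all genes (12.5% higher, 8.80% lower). In Zfp281-present lines 8 of 30 were called, 3 higher and 5 lower, against 10.9% of all genes (4.91% higher, 6.01% lower). The difference between these 2 changes, tested as an interaction, was called for 5 of 30 members, all more positive in null lines, against 11.4% of all genes (7.19% in that direction, 4.26% in the other). They were Foxa2 at 5.80 (SE 0.95, limma adjusted p = 0.00808), Foxq1 at 4.47 (SE 1.07, limma adjusted p = 0.0293), Foxf2 at 2.90 (SE 0.50, limma adjusted p = 0.0102), Foxl2 at 2.34 (SE 0.41, limma adjusted p = 0.0106) and Foxf1 at 2.17 (SE 0.56, limma adjusted p = 0.0364). All 5 calls were lost without 3WT and without 3.34Null-Rescue, and that of Foxf1 also without 2.6Null. Without 3WT Foxa2 was at 6.97 with adjusted p = 0.0719, and without 3.34Null-Rescue at 4.63 with adjusted p = 0.0638. With each line left out Foxq1 ran from 3.81 without 3.34Null to 5.12 without 2.6Null. Foxf1 was at 1.46 without 3WT and at 2.87 without 3.34Null-Rescue. Foxa1, which fell in both kinds of line, gave -0.08 (SE 0.42, limma adjusted p = 0.917).

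**Figure D4:**
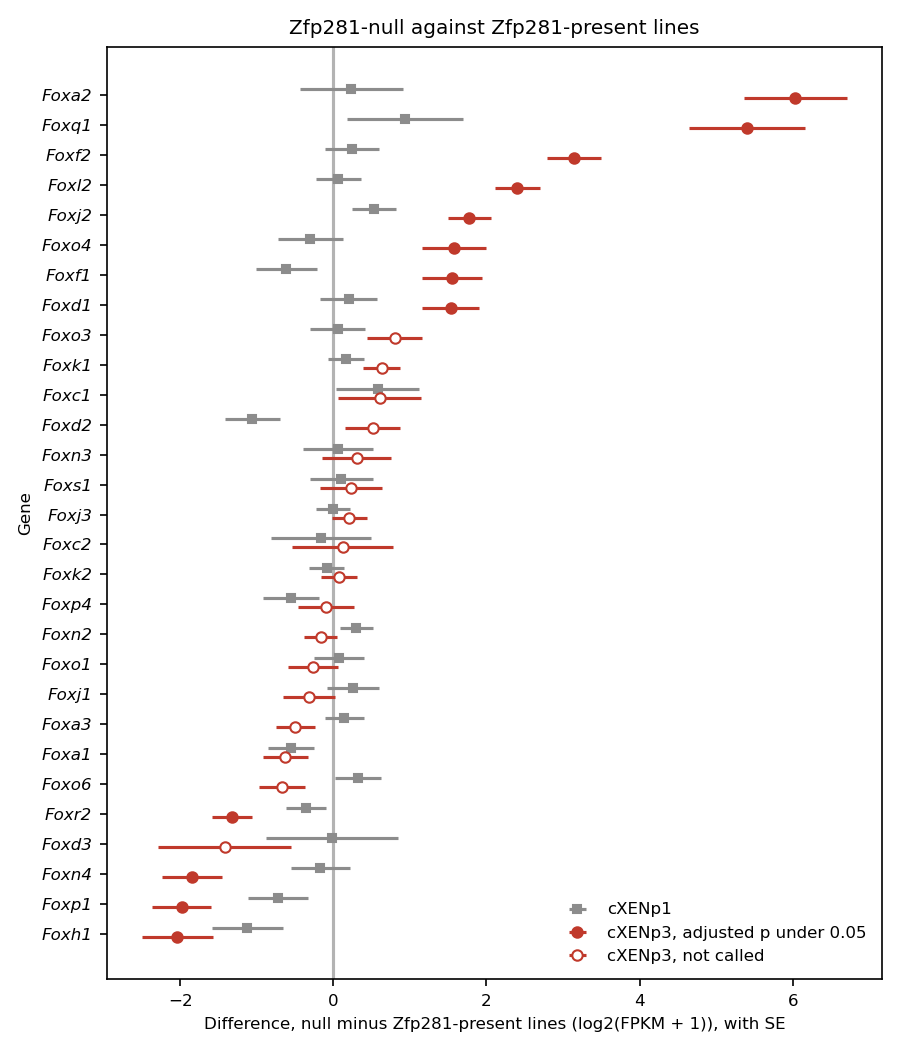
Log2 difference with its SE for the 29 named members, null minus Zfp281-present lines, as squares at cXENp1 and as circles at cXENp3, filled where called. At cXENp3 Foxa2 at 6.03 and Foxq1 at 5.41 lie farthest to the high side, and Foxh1 at -2.03 and Foxp1 at -1.98 farthest to the low side.

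Zfp281-present lines at cXENp3 were set against the same kind of line in ESC, and 0 of 30 members were called, against 1.30% of all genes. With limma 8 members had an unadjusted p under 0.05, as did 2405 of all 13191 genes. Among the 8 were Foxa3 at -0.99 and Foxp1 at 1.23. Foxa2 gave 0.11 and Foxd3 0.75. Null lines at cXENp3 were set against the established XEN lines, and 3 of 30 were called, 2 higher and 1 lower, against 4.12% of all genes (2.64% higher, 1.48% lower). These were the higher Foxl2 and Foxd1 and the lower Foxa3 given above. Foxa2 differed by -0.23 (SE 0.64, limma adjusted p = 0.888) and Foxq1 by -1.19 (SE 0.72, limma adjusted p = 0.388), neither called.

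3 of the 4 ESC libraries carry another prefix in their description than the ESC library of 2.6Null and all later libraries, and what the prefix stands for is not stated. With the prefix as a term, cXENp1 against ESC rests on 2.6Null for the ESC side, and 2 of 30 members were called, Foxa1 at 3.47 and Foxd3 at -5.66. In XEN lines against ESC the prefix term left 9 of 21 called, with Foxa2 at 5.24 and Foxq1 at 4.38. Without the ESC library of 2.6Null, 14 members were called in XEN lines against ESC, with Foxa2 at 6.35, and 11 of 30 in cXENp1 against ESC. The share of all genes called under these settings was not set beside these counts. All cXENp1 and cXENp3 libraries share 1 prefix, so comparisons among them do not cross it. Both Zfp281-present ESC libraries carry the other prefix. In the main fit of cXENp3 against ESC in Zfp281-present lines, stage and prefix thus cannot be told apart. The null ESC pair holds both prefixes, and its spread enters the pooled spread of the 6 groups.

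Some calls of named members also ended under other settings. The smaller pseudocount of 0.1 ended the rises of Foxa2 and Foxf2 from cXENp1 to cXENp3 in null lines, the rise of Foxr2 in Zfp281-present lines, the lower Foxa3 at cXENp1 and the interaction of Foxf1. It enlarged differences of low members, with Foxa2 at 8.61 and Foxf2 at 5.34 between null and Zfp281-present lines at cXENp3. Testing every gene above 0, with more genes to adjust over, ended the calls of Foxa3 in XEN lines, Foxh1 at cXENp1, Foxa2 and Foxs1 in null lines, Foxd3, Foxq1 and Foxn4 in Zfp281-present lines, and the interactions of Foxq1 and Foxf1. In cXENp1 against ESC, Foxq1, Foxh1, Foxa3 and Foxc1 lost their call without the ESC library of 2.6Null, and Foxq1 and Foxh1 also without the block. The prefix term ended the calls of Foxn4, Foxp1 and Foxa3 in XEN lines against ESC.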

How the data were processed

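RNA-seq of 14 libraries was read from 1 deposited table of 23174 genes. The values are FPKM as deposited, judged from the values, and the submitters' processing notes name STAR 2.5.3, Cufflinks 2.1.1 and the build mm9, without stating roles. Counts were not used here, so sequencing depth is unknown and no counting interval was given. FPKM sums ran from 424406 to 718138 per library and genes above 0 from 14972 to 16831. Start positions were shifted to count from 1.

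Values were log2(FPKM + 1) transformed. Genes at 1 FPKM or more in at least 2 fitted libraries were tested with limma 3.58.1 in R 4.3.3 (eBayes with a trend, Benjamini-Hochberg over all genes tested, called under 0.05). The course was fitted as 6 groups of 2 lines. For cXENp1 against ESC its 12 libraries were fitted with the stages as groups and the line as a block. XEN against ESC was fitted on the 6 libraries of XEN lines and ESC. On simulated data with 200 genes changed by 2 on the log2 scale, the null comparison at cXENp3 recovered 83.5% and the interaction 62.5%. The changed genes were drawn only from those with higher mean levels, so these rates do not apply to the low members.

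Named with values are Foxa2, Foxd3, every member called in a comparison and every member reaching 5 FPKM, and of each gene list up to 3 called genes with the largest differences. The members and lists were chosen with earlier results of these data known. The pairing used for the block comes from the line, which links its 3 stages. Alternatives were a pseudocount of 0.1, filters of any value above 0 and of a mean of 5 FPKM, quantile normalization, eBayes without a trend, the block, the description prefix as a term, and each line left out. Leaving out the ESC library of 2.6Null, and the prefix term in XEN against ESC, were added after seeing the data. Where leaving out a line left 1 library in a group, that library was assumed to vary like the other groups. The cell line field of 2.6Null carries a different number from its title, and the title was followed. The values of 1 member are not reported here.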

Additional observations from a re-analysis of the deposited data

Results flagged for a closer look

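In the groups of 4 libraries, 58 sets of values (29 named members in ESC and at cXENp1) were checked for a library far from the other 3, and 5 were found, while chance alone finds about 1 in 20. 3 of the 5 lay in the ESC library of 2.6Null. Foxa2 was at 1.20 FPKM there and at 0 to 0.0576 FPKM in the other ESC. Foxj3 was lowest there, at 10.6 FPKM against 13.97 to 14.5 FPKM, and so was Foxo1, at 5.99 FPKM against 10.7 to 12.03 FPKM. Foxs1 was at 0.102 FPKM in 3WT ESC and listed at 0 in the others. With the others at 0 any value above 0 is flagged, so the chance rate does not apply to that set. Foxk2 was at 21.0 FPKM in 3.34Null-Rescue at cXENp1 and at 18.4 to 18.5 FPKM in the other 3 lines.

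The change from cXENp1 to cXENp3 differed between null and Zfp281-present lines, by the interaction test in limma, for Foxa2 (5.80), Foxq1 (4.47), Foxf2 (2.90), Foxl2 (2.34) and Foxf1 (2.17), each as null minus Zfp281-present on the log2 scale.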

How the results depend on the processing

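Of 2871 member values recomputed under the alternatives, 2701 kept their side of the threshold, 123 lost and 47 gained a call. None that was called before or after changed sign, and the sign of values called in neither fit was not counted. Of 63 member calls, 20 held under every alternative that tested them and 24 with each line left out. Requiring a mean of 5 FPKM, which tests fewer members, lowered the members called to 4 in XEN against ESC, 7 in cXENp1 against ESC, 5 between null and Zfp281-present lines at cXENp3, 4 and 4 from cXENp1 to cXENp3 in null and in Zfp281-present lines, 2 in the interaction and 0 between null cXENp3 and XEN lines. Testing any gene above 0 left 3 in the interaction, a pseudocount of 0.1 gave 5 between null cXENp3 and XEN lines, and the prefix term left 2 in cXENp1 against ESC. For the last 3 the cause was not tested. With each line left out the counts ran from 6 to 14 in XEN against ESC (6 without XENB1 or XEN5), 5 to 12 in cXENp1 against ESC (5 without 3.34Null-Rescue, 7 without 3.34Null), 0 to 5 between null and Zfp281-present lines in ESC (5 without 3.34Null), 0 to 0 at cXENp1 and 5 to 14 at cXENp3 (5 without 3WT, 7 without 2.6Null). They ran from 5 to 7 in null lines (5 without 2.6Null) and 1 to 9 in Zfp281-present lines (1 without 3WT, 3 without 3.34Null-Rescue) for cXENp1 to cXENp3, 0 to 8 in the interaction (0 without 3WT or 3.34Null-Rescue, 8 without 3.34Null), 0 to 1 in Zfp281-present lines against ESC and 2 to 4 between null cXENp3 and XEN lines. With the line as a replicate block 8, 6, 5 and 0 members were called in null lines, in Zfp281-present lines, in the interaction and in Zfp281-present lines against ESC. Without the replicate block 14 were called in cXENp1 against ESC. These counts under the alternatives are given without the share of all genes called, so they show only how the counts moved. Depth limits the members near 0, whose read counts are unknown here.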
